A study of Mus musculus with 2 samples.

Results

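Nuclear receptors are transcription factors, most of them switched by small lipid-soluble ligands such as steroids, thyroid hormone, retinoic acid, vitamin D, oxysterols and bile acids. Many bind DNA as a dimer with a retinoid X receptor, at sites built from copies of the short motif AGGTCA. In fat tissue, members of the family steer adipocyte formation, lipid storage and heat production. DNA methylation is the addition of a methyl group to cytosine, in mammals mostly where a C is followed by a G (a CG dinucleotide). Described here are 41 nuclear receptor genes of the mouse, outside the glucocorticoid receptor group, among 21887 protein-coding genes in all. They were chosen by name, with earlier results of these data known, and without 8 further receptors that are counted separately. All 41 were matched by symbol to RefSeq. A region was assigned to a gene where it overlapped the RefSeq gene span plus 2 kb on each side (GRCm38.p6, the assembly of mm10). By this rule 53 of the 28141 regions that the authors list as differentially methylated lay at these genes, and none was shared by 2 of them.

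The regions come from whole-genome bisulfite sequencing of 2 libraries of C57BL/6 mouse adipose progenitors, 1 sorted for CD137 and 1 sorted for PDGFRα (CD140). CD137 is a surface receptor used to mark precursors of beige adipocytes, and PDGFRα is a growth factor receptor of mesenchymal progenitors. Both populations were isolated by magnetic sorting from subcutaneous or visceral fat, grown, put through adipogenic differentiation and given 1 µM dexamethasone, a synthetic glucocorticoid. The labels do not tie either library to a depot, so depot and sorted population cannot be told apart, and dexamethasone was common to both. With 1 library in each group, differences are given as values without tests or replicate error. Read depth is unknown, so a level, the fraction of cytosines read as methylated from 0 to 1, has no interval. Where levels are set as 1 against another, the PDGFRα+ level comes first. Only regions listed as different were examined, and levels elsewhere in these genes are not known.

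More of the nuclear receptor genes held a listed region than protein-coding genes in general, and most of these regions were less methylated in the PDGFRα+ library. A region was present at 24 of the 41 genes (58.5%, 95% Wilson interval 43.4 to 72.2), against 29.5% of all protein-coding genes. The receptor genes are long, with a median span of 46.5 kb against 17.2 kb, and longer genes held regions more often. At the shares of their own length classes, 17.9 of the 41 genes (43.7%) would hold one, a value inside that interval. Of the 53 regions, 41 were lower in PDGFRα+ cells and 12 were higher. The share of lower regions, 77.4% (64.5 to 86.5), was near the 77.7% of all listed regions. Wilson intervals cover counting error only and treat regions or genes as independent. They take no account of how the genes were chosen.

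**Figure D1:**
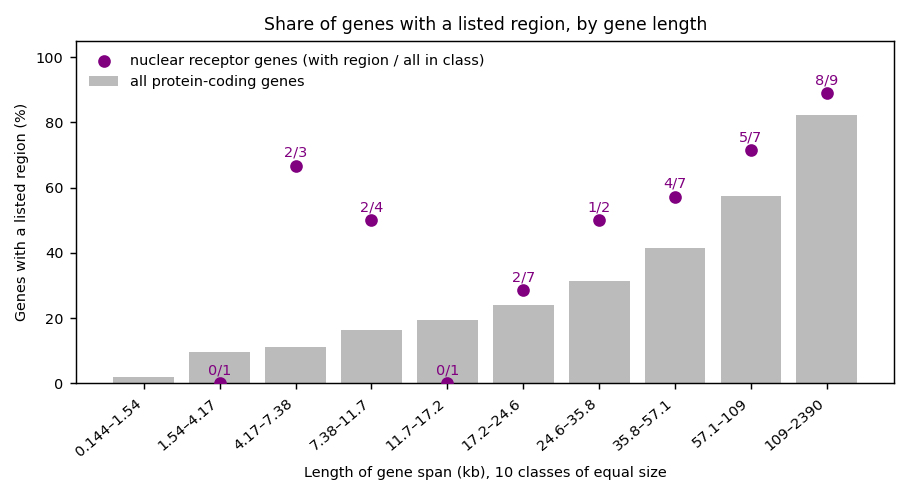
Share of genes with a listed region (y axis, percent) in 10 classes of gene span length in kb (x axis). Grey bars are all protein-coding genes and purple points are the nuclear receptor genes, with the number holding a region over the number in the class: in the longest class 82.2% of all genes and 8 of 9 nuclear receptor genes held a region.

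Counted by gene, 20 of the 24 were mostly lower in PDGFRα+ (83.3%) against 70.4% of all protein-coding genes with a region. The other 4 (16.7%) were mostly higher, against 21.6%. The median over the 24 genes of the mean difference, PDGFRα+ minus CD137+, was -0.50, against -0.445 over all genes with a region. Regions within a receptor gene mostly shared a direction. Among 10 genes holding 2 or more, 8 (80.0%) had a single direction, against 52.6% of 3130 such protein-coding genes. The exceptions were Nr1h4 and Esrrg. Counted by neighbouring pairs the members did not stand out, since 22 of 29 pairs (75.9%) shared a direction against 73.3% over all genes.

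**Figure D2:**
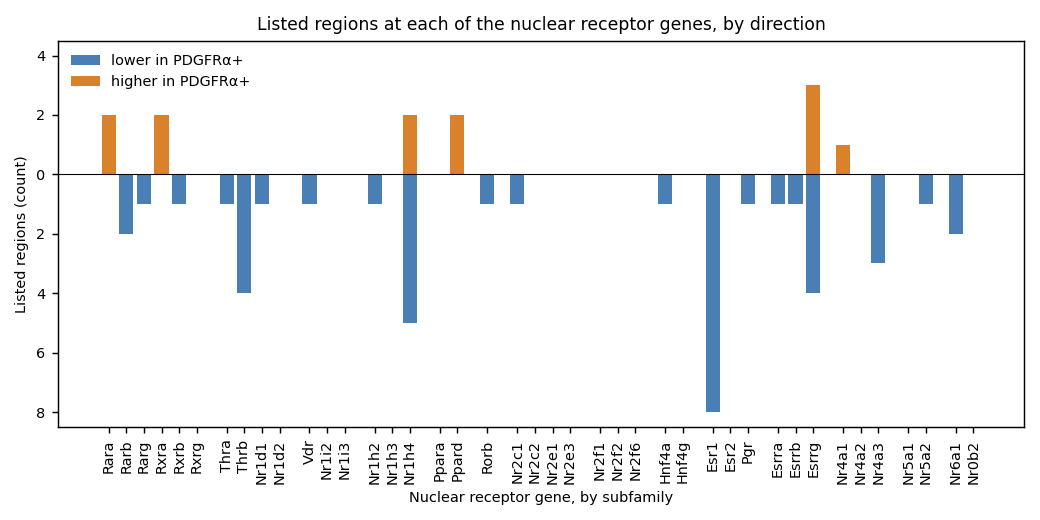
Number of listed regions (y axis) at each of the 41 nuclear receptor genes (x axis, grouped by subfamily), with regions higher in PDGFRα+ above 0 and regions lower below it. Esr1 has the most, 8 lower regions, and Rara, Rxra, Ppard and Nr4a1 have higher regions only.

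Regions at these genes had levels much like those of the whole list. Lower regions had medians of 0.252 (PDGFRα+) and 0.801 (CD137+), against 0.261 and 0.820 over all lower regions. Higher regions had medians of 0.855 and 0.279, against 0.879 and 0.344. Large differences were somewhat more frequent: 19 of 53 (35.8%) had an absolute difference of at least 0.6, against 23.4% of all regions. Regions of only 4 cytosines, the smallest number listed, were also more frequent (9, or 17.0%, against 8.76%), and such regions give the least precise levels. All 9 were among the 19 with a difference of at least 0.6, so these excesses are not separate. Rarg, Nr1h2 and Nr6a1 rest on regions of 4 cytosines alone.

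None of the regions touched a promoter window, so the sequences below show the starts that came closest to one. It gives 57 windows of 300 bases, from 250 before to 50 after a start, for 38 of the 41 genes. Thra, Hnf4g and Nr5a1 have none there. At Nr1h4 and Nr4a1 its only start lies inside the span, and a region lay within 1.5 kb of the span's 5′ end. Over all protein-coding genes, 221 of 21263 windows (1.04%) overlapped a listed region. Within 1.5 kb of a start in that table lay 5 of 52 regions (9.62%, against 8.23% of all region and gene pairs). They lay at Rarg, Rxrb, Nr1h2, Nr1h4 and Esrrg. Regions near the 5′ end of a span that has no window there are not counted. For 3 of these 5 genes the window is printed 5′ to 3′ on the gene's strand, with each CG dinucleotide in capitals. They are the window richest in CG, the poorest, and the one beside the region higher in PDGFRα+, and their positions are chr17:34031562-34031861 (plus strand), chr10:89506609-89506908 (minus strand) and chr1:187651991-187652290 (plus strand).
Rxrb: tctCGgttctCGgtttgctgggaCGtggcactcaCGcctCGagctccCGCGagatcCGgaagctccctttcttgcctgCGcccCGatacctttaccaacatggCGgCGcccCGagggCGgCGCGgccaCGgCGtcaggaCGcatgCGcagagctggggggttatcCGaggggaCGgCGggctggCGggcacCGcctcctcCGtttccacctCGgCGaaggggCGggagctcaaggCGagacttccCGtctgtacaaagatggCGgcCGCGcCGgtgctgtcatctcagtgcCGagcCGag
Nr1h4: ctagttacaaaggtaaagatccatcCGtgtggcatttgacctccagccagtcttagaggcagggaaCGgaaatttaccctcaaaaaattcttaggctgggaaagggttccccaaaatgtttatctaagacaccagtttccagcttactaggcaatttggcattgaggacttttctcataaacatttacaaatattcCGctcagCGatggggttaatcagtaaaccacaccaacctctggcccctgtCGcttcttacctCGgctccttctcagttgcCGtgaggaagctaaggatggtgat
Esrrg: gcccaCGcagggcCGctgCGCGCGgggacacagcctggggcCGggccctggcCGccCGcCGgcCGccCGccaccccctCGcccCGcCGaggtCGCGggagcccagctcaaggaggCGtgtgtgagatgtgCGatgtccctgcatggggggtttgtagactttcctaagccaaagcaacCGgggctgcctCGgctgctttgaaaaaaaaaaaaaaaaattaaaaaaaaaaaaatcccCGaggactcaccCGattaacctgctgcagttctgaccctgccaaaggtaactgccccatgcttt

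These windows differed widely in CG content. Rxrb holds 37 CG, Esrrg 22 and Nr1h4 7, with 19 in Nr1h2 and 12 in Rarg, against a median of 13 over all protein-coding windows. The nearest listed region lay 738 bases outside the Rxrb window, 797 outside that of Nr1h4 and 1009 outside that of Esrrg. The motif AGGTCA, searched on both strands, is found in 9 of the 57 member windows (15.8%) and in 14.7% of all protein-coding windows. Of the 5 windows near a region, it occurs once in Nr1h4 and once in Rarg, on the opposite strand from bases 37 and 26. A match describes letters only, not binding. Regions sat at a median of 24.8 kb from the nearest start in the promoter table for their gene, against 31.1 kb over all genes. Touching the gene span were 48 of the 53, and 5 lay in the 2 kb beside it. Exons and introns were not assigned here. Starts of regions are printed as deposited and can be off by 1 base.

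The retinoid receptors divided by gene. The genes of RARα and RXRα, which pair to form a retinoic acid sensor, held only regions higher in PDGFRα+, while by the 2 kb rule those of RARβ, RARγ and RXRβ held only lower ones. Rara had 2 neighbouring higher regions, 52 bases apart, on chromosome 11 (98931073 to 98931141 and 98931193 to 98931323). The first stood at 0.714 against 0.230 in CD137+ and the second at 0.698 against 0.145, each over 5 cytosines. Both lay inside the gene span, 6.59 and 6.44 kb before the nearest start in the promoter table. Rxra had 2 higher regions 22.1 kb apart on chromosome 2. The first, 27693843 to 27694170, had 0.795 against 0.273 over 12 cytosines. The second, 27716283 to 27716547, lay 7.12 kb after a start and had 0.905 against 0.282 over 10 cytosines. Across both genes the 4 regions ran from 0.698 to 0.905 in PDGFRα+ and from 0.145 to 0.282 in CD137+.

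The lower retinoid regions had the opposite levels. Rarb, a gene that retinoic acid itself induces in many cells, had a region on chromosome 14 (16723509 to 16723575) at 0.149 against 0.799 in CD137+. A second (16983820 to 16983951) was at 0.285 against 0.765. Both lay inside the 651 kb span, 148 and 408 kb before the start in the promoter table. Rarg had 1 region on chromosome 15 (102258799 to 102258880), 1.32 kb before its start, with 0.165 against 0.785. Rxrb had 1 region of 15 cytosines on chromosome 17 (34030287 to 34030824), 1.26 kb before the CG-rich start printed above, with 0.267 against 0.896. That region also lay at Slc39a7, a zinc transporter gene. Rxrg had none, and its nearest region was 52.8 kb away. In all, 4 of the 8 retinoid regions were higher, against 22.3% of all listed regions. Of these 4, however, 2 were the Rara regions only 52 bases apart. By the 2 kb rule no retinoid receptor gene held both directions. With a 10 kb flank Rarg and Rxra did: a higher region lay 9.24 kb from Rarg, with 0.875 against 0.334, and took its mean difference from -0.619 to -0.0391. A lower region 4.20 kb from Rxra, with 0.0993 against 0.555, took its mean from 0.573 to 0.230.

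All 6 regions at the thyroid hormone receptor and Rev-erb genes were lower in PDGFRα+ cells, against 77.7% of all listed regions. Thra, which encodes TRα, had a region of 32 cytosines on chromosome 11 (98743187 to 98743921) methylated at 0.178 in PDGFRα+ against 0.703. The size of its area statistic, the score the authors give each region, stood at the 97.6 percentile of all listed regions. Most member regions scored far lower, with a median at the 43.8 percentile over the 53 and the lowest, at Rarb, at 0.274. Thrb, encoding TRβ, had 4 regions inside its 381 kb span on chromosome 14. From the 5′ end, their levels in PDGFRα+ were 0.0865, 0.0797, 0.197 and 0.405. In CD137+ they were 0.795, 0.740, 0.703 and 0.893. The PDGFRα+ level was thus below 0.1 in both regions nearest the 5′ end, the first over only 4 cytosines and the second over 12. Nr1d1 encodes Rev-erbα, a haem-binding repressor of the circadian clock. Its single region on chromosome 11 (98772591 to 98772855) had the widest difference among all 53, with 0.126 against 0.898 over 6 cytosines. It lay 2.65 kb after the Nr1d1 start and 3.58 kb outside Thra, whose span overlaps that of Nr1d1. Beyond the 2 kb rule, a higher region lay 9.45 kb from Nr1d1, with 0.864 against 0.304, and with a 10 kb flank the mean difference of Nr1d1 went from -0.771 to -0.106. Nr1d2, the gene of the close relative Rev-erbβ, had none, with the nearest 141 kb away.

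Vitamin D, xenobiotic and sterol receptors were mostly at 1 region or none, apart from the bile acid receptor. Vdr, the vitamin D receptor gene, had 1 lower region on chromosome 15 (97896030 to 97896122), with 0.212 in PDGFRα+ and 0.618 in CD137+. The xenobiotic sensors Nr1i2 (PXR) and Nr1i3 (CAR) had none by the 2 kb rule. Beyond it, a higher region lay 8.46 kb from Nr1i2, with 0.704 against 0.0998. A lower one lay 9.96 kb from Nr1i2, with 0.4875 against 0.8949. The nearest to Nr1i3 was 13.3 kb away. Nr1h2, the gene of the oxysterol receptor LXRβ, had a lower region 792 bases after its start on chromosome 7 (44553098 to 44553248), with 0.0822 against 0.721 over 4 cytosines. Nr1h3, the gene of LXRα, had none, with the nearest 68.6 kb away.

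Nr1h4 encodes FXR, a bile acid receptor known chiefly from liver and intestine. It held 7 regions on chromosome 10, or 8.39 per 100 kb of span and flanks, against 1.28 over the 41 genes together. The short genes Nr1h2, Rxrb and Nr1d1 had higher values (12.0, 9.44 and 8.74), from 1 region each. Of these 5 were lower and 2 higher in PDGFRα+. At the 5′ end of the span lay 3 lower regions, with gaps of 421 and 3713 bases and PDGFRα+ levels of 0.230, 0.263 and 0.144 against 0.707, 0.893 and 0.817 in CD137+. The longest of the 53 regions was among them, 89531148 to 89532686, with 1538 bases, 30 cytosines and an absolute statistic at the 97.1 percentile. The one at 89533107 to 89533690 overlapped the 5′ end of the span, where the promoter table has no start. All 3 lay 20.6 to 26.7 kb before the start printed above, which is inside the span. A further lower region, 89505545 to 89505812, lay 980 bases after that start with 0.382 against 0.862. The first higher region, 89521787 to 89521844, had the smallest difference among the 53, with 0.869 against 0.506. The other, 89452628 to 89452710, lay 1524 bases beyond the 3′ end with 0.895 against 0.277, and only 2.03 kb from a lower region with 0.362 against 0.828. The 2 higher regions had 5 and 4 cytosines, and the 5 lower ones 7 to 30.

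Of the PPAR genes, Ppard had 2 higher regions and Ppara none, with its nearest 46.0 kb away. PPARδ is a fatty acid sensor that promotes fatty acid oxidation. The region at 28246815 to 28246962 on chromosome 17 had 0.842 against 0.268 over 5 cytosines. The one at 28259834 to 28260151 had 0.973 against 0.456 over 12 cytosines. Both lay inside the gene, 14.1 and 27.2 kb after its start.

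Several orphan and tissue-restricted receptors had single lower regions. Rorb, a gene of retina and brain, had 0.265 in PDGFRα+ and 0.780 in CD137+ over 15 cytosines (chromosome 19, 19041901 to 19042179). Nr2c1, encoding the testicular receptor TR2, had 0.483 against 0.915 over 31 cytosines (chromosome 10, 94172011 to 94172357), and this was the highest PDGFRα+ level among the lower regions. Hnf4a, a master regulator of hepatocyte genes, had 0.281 against 0.766 (chromosome 2, 163561409 to 163561558). Nr5a2, which encodes LRH-1, had 0.455 against 0.880 over 12 cytosines (chromosome 1, 136881651 to 136881836). Nr6a1, encoding germ cell nuclear factor, had 2 lower regions 102 kb apart on chromosome 2, with 0.356 and 0.185 against 0.969 and 0.854. No region was found at Nr2c2, Nr2e1, Nr2e3, Hnf4g, Nr5a1 or Nr0b2, and their nearest regions lay 57.1 to 923 kb away.

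Esr1, the gene of estrogen receptor α, held more regions than any other of the 41, and all 8 were lower in PDGFRα+. They were spread over most of the 394 kb span on chromosome 10, from 9.51 to 372 kb from its 5′ end. In PDGFRα+ these regions ranged from 0.0837 to 0.262 and in CD137+ from 0.455 to 0.895. The region with most cytosines, 24 in 4633539 to 4634154, had 0.262 against 0.820. The widest difference was in 4943515 to 4944094, with 0.109 against 0.773, and the narrowest in 4776491 to 4776545, with 0.0871 against 0.455. That narrow region lay 141 bases from the next one, which had 0.0837 against 0.685. Pgr, the progesterone receptor gene and a known target of estrogen receptor α, had 1 lower region 1804 bases beyond its span (chromosome 9, 8970415 to 8970514), with 0.260 against 0.636. Esr2, the gene of estrogen receptor β, had none, and the nearest lay 102 kb away.

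**Figure D3:**
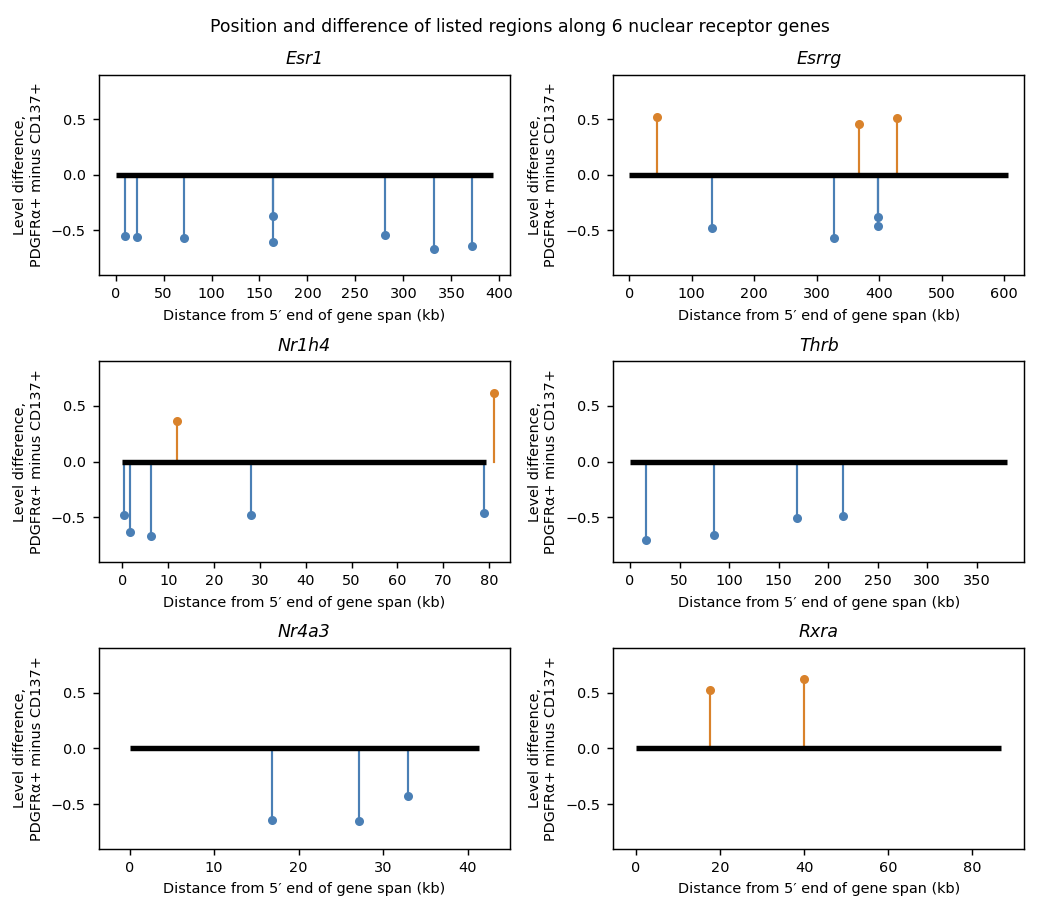
Listed regions along 6 nuclear receptor genes, by distance from the 5′ end of the gene span in kb (x axis) and level difference, PDGFRα+ minus CD137+ (y axis); the black bar is the gene span, blue is lower and orange higher in PDGFRα+. All 8 regions of Esr1, all 4 of Thrb and all 3 of Nr4a3 point down, both of Rxra point up, and Esrrg and Nr1h4 have both directions.

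The estrogen-related receptors are orphan receptors that drive mitochondrial and oxidative genes together with PGC-1 coactivators. Esrra had 1 lower region (chromosome 19, 6916650 to 6916747), with 0.380 in PDGFRα+ and 0.958 in CD137+. Esrrb had 1 lower region (chromosome 12, 86473668 to 86473771), with 0.263 against 0.657. Esrrg, whose span of 606 kb lies on chromosome 1, was the most mixed of the genes, with 4 lower and 3 higher regions and a mean difference of -0.0584.

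Directions alternated along Esrrg. The first higher region, 187653299 to 187653629, lay 1.22 kb after the start printed above, over 17 cytosines, with 0.824 in PDGFRα+ and 0.305 in CD137+. It also lay at the long non-coding RNA gene Gm36388. The other higher ones had 0.908 against 0.453 (187976544 to 187976668) and 0.645 against 0.139 (188036274 to 188036508). Between them lay 2 lower regions 156 bases apart, of which 188007173 to 188007755, with 33 cytosines, had 0.387 against 0.850 and an absolute statistic at the 98.0 percentile, the highest among the 53. The remaining lower regions had 0.359 against 0.837 and 0.262 against 0.833. The mean difference of Esrrg changed sign, to 0.151, where only differences of at least 0.5 were kept (3 regions), and to 0.0282 with at least 10 cytosines (2 regions).

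In the NR4A group, whose members are immediate early genes switched on by stress and cyclic AMP, Nr4a1 and Nr4a3 had opposite directions. Nr4a1 (Nur77) had 1 higher region of 8 cytosines, 898 bases before the 5′ end of its span on chromosome 15 (101252796 to 101253004). Its PDGFRα+ level of 0.980 was the highest among the 53 regions, against 0.369 in CD137+. It lay 13.9 kb before the only start in the promoter table, which is inside the span. Nr4a3 (NOR-1) had 3 lower regions inside its span on chromosome 4, with PDGFRα+ levels of 0.175, 0.165 and 0.306 against 0.822, 0.818 and 0.734. Nr4a2 (Nurr1) had none, and the nearest lay 32.9 kb away.

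**Figure D4:**
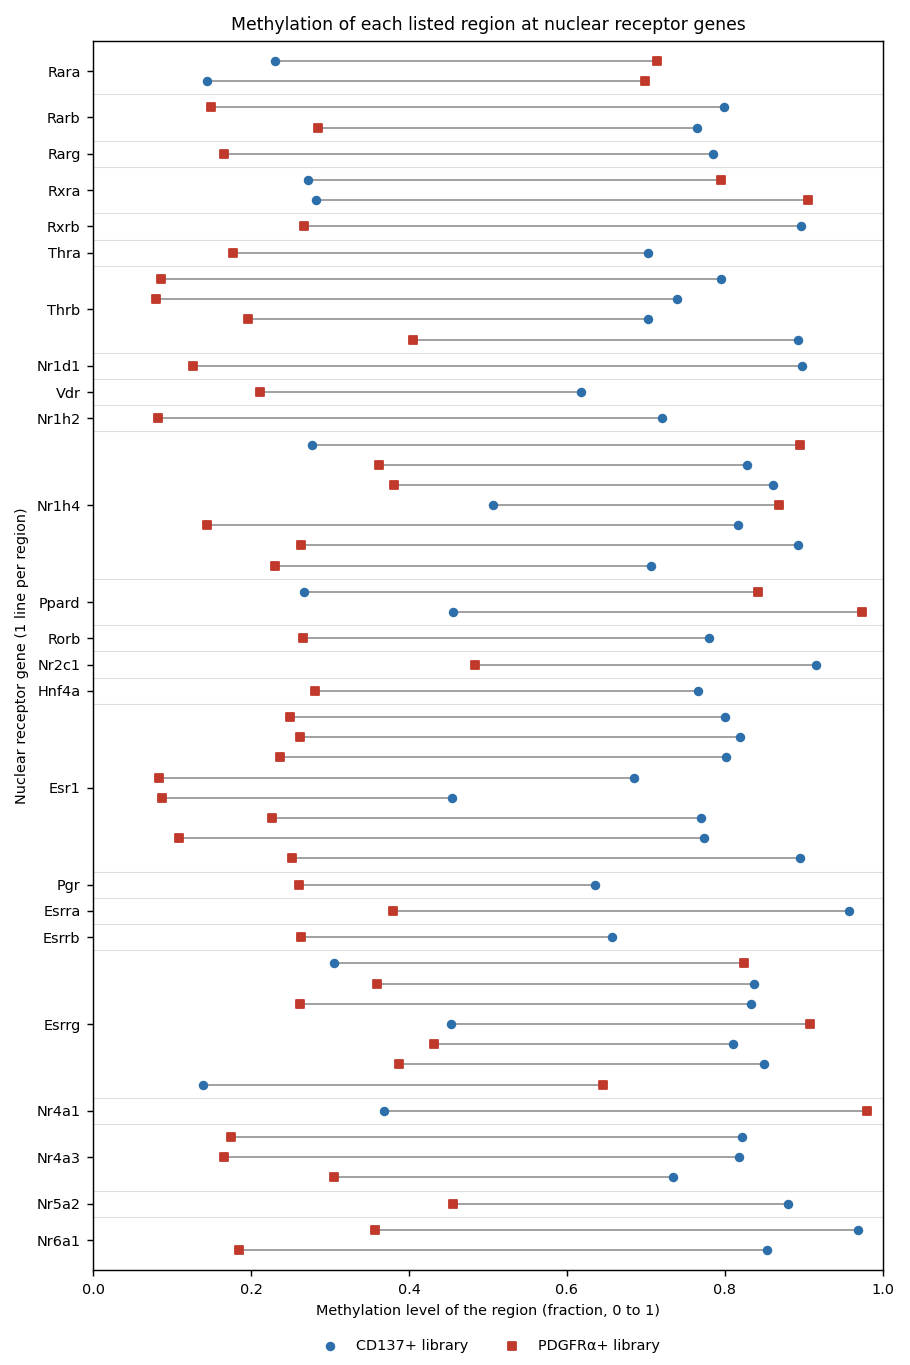
Methylation level (x axis, fraction) of each of the 53 listed regions, 1 line per region grouped by gene (y axis), with blue circles for the CD137+ library and red squares for the PDGFRα+ library. Red lies left of blue in 41 regions, and right of it in all regions of Rara, Rxra, Ppard and Nr4a1 and in some of Nr1h4 and Esrrg.

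The COUP transcription factors, orphan receptors that include the mesenchymal regulators COUP-TFI (Nr2f1) and COUP-TFII (Nr2f2), had no region by the 2 kb rule, but Nr2f1 missed it by a small margin. The region just outside, 2034 bases from Nr2f1 (chromosome 13, 78186739 to 78186937), had 0.668 in PDGFRα+ and 0.205 in CD137+, and the region just inside, at Pgr, lay 1804 bases from its gene. Within 10 kb Nr2f1 had 4 regions, all higher in PDGFRα+, with 0.586, 0.778, 0.668 and 0.712 against 0.251, 0.283, 0.205 and 0.211. Nr2f2 had 1 within 10 kb, 7.63 kb away, with 0.738 against 0.305. Nr2f6 had its nearest 83.0 kb away. In this wider zone, 2 to 10 kb from any of the 41 genes, 9 of 13 pairs of a region and a gene were higher (69.2%), against 30.0% of such pairs over all protein-coding genes, and 4 of the 9 belong to Nr2f1. The pair of Thra and the Nr1d1 region repeats a region already described, so the zone adds 12 regions, 9 higher and 3 lower. A further higher one lay 9.76 kb from Rara, with 0.902 against 0.485.

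Genes that work with the receptors were also counted, from lists chosen with earlier results known. For each list, the share with a region reads against 29.5% of protein-coding genes, and the share of lower regions against 77.7% of all listed regions. Of 15 coregulator genes 7 held a region, where the shares of their length classes give 9.12, and 16 of their 23 regions (69.6%) were lower in PDGFRα+. The coactivator genes Ncoa1 and Ncoa3 had 4 lower with 1 higher and 3 lower with 2 higher. Nrip1, a corepressor of fat metabolism genes, was the mostly higher exception, with a mean level of 0.785 in PDGFRα+ and 0.518 in CD137+. Retinoid handling genes held a region in 7 of 12, where their length classes give 4.03, and 12 of their 13 regions (92.3%, against 77.7%) were lower. Among them Aldh1a1, whose product makes retinoic acid, was lower in all 5 of its regions, with mean levels of 0.208 and 0.763. Crabp1, a retinoic acid carrier gene, was lower in both of its regions, with 0.250 and 0.724, and Stra6, a retinol uptake gene, had 1 region in each direction.

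Thyroid hormone and vitamin D handling genes held regions in 2 of 10, where their length classes give 3.37, and 4 of their 8 regions were lower, against 77.7% of all listed regions. Slc16a10, a thyroid hormone transporter gene, had 4 lower and 3 higher, and Cyp27b1, which encodes the enzyme that activates vitamin D, had 1 higher region with 0.915 against 0.188. Of 10 sterol and fatty acid target genes 4 held regions, where their length classes give 3.75. Abca1, a cholesterol exporter gene, was higher in 2 of 3, and Angptl4 and Mylip each had 1 lower region. Of the 8 nuclear receptor genes outside the 41, 5 held a region, where their length classes give 4.85, and 23 of their 25 regions (92.0%, against 77.7%) were lower. Rora, a clock and lipid metabolism regulator, held 14 of these 25 regions, of which 13 were lower, with mean levels of 0.312 and 0.785. Together with the 24 above, this brought the family to 29 of 49 genes with a region. Length classes give 17.9 for the 41 genes and 4.85 for the 8, so gene length goes with much of this count.

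Marker genes of other cell types also differed between the libraries. In a short leukocyte list 6 of 7 genes held a region, where their length classes give 2.69. Of its 21 regions 18 were higher in PDGFRα+, against 22.3% of all listed regions, but by gene only 3 of the 6 were mostly higher. These were Ptprc, Ikzf1 (5 of 5 regions) and Laptm5 (3 of 3), while Cd74 and Spi1 had 1 region in each direction and the single region of Cd3e was lower, with 0.324 against 0.966. Ptprc, the pan-leukocyte CD45 gene, was higher in all 8 of its regions, with mean levels of 0.861 and 0.359. In an endothelial list 5 of 5 genes held a region, where their length classes give 2.47. Of its 11 regions 8 were higher, against 22.3% of all listed regions. All 3 regions of Tek were lower, with mean levels of 0.351 and 0.845. In a mural list 4 of 5 genes held a region, where their length classes give 1.91. In a mesothelial list 3 of 4 did, where their length classes give 0.952. All 5 mural regions and 10 of 11 mesothelial regions (90.9%) were lower, against 77.7% of all listed regions. Of 6 fibroblast and adipose progenitor markers 4 held a region, where their length classes give 3.37. Of their 25 regions 23 (92.0%, against 77.7%) were lower, including 7 of 8 at Zfp423, with mean levels of 0.316 and 0.666. Of the sorting markers, Pdgfra had 1 lower region and Tnfrsf9, the CD137 gene, had none. The part of such cells in the higher regions at Rara, Rxra, Ppard and Nr4a1, or in the lower regions elsewhere, was not tested.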

How the data were processed

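Each of the 2 groups, assigned by sample title, had 1 whole-genome bisulfite library. The data are 1 table of differentially methylated regions made by the authors, on mm10 per the submitters' processing notes. Per the file headers, it gives each region's length, cytosines and methylation level in each library, deposited as a fraction, the difference (CD140 minus CD137) and an area statistic, deposited as a score. The deposited difference matched the levels within 0.0001. For the aligner, callers, thresholds and coverage minimum, nothing is stated in the labels or headers, so depth is unknown, and regions not listed were not seen.

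Regions were assigned to RefSeq gene spans (GRCm38.p6) plus 2 kb. Starts and promoter sequences come from the windows of a separate promoter table, whose starts can differ from the 5′ ends of the spans. The members and lists were chosen with earlier results of these data known. All 41 members are accounted for; described region by region are those with most regions, those with a higher region and the widest difference per subfamily, and other regions were named after their values were seen. For gene lists, up to 4 genes with most regions were named. Some of these genes are not reported here. Promoter windows were to be printed where a region overlapped one; none did, and the windows within 1.5 kb were chosen after seeing the data. No test was made. Alternatives changed the minimum difference, the cytosine minimum, the flank, merging, weighting and shared regions. The overlap search was tested on simulated regions. Tables were handled in pandas 2.3.3 and numpy 2.4.6 under Python 3.11.15, intervals came from scipy 1.17.1, and plots from matplotlib 3.10.9.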

Additional observations from a re-analysis of the deposited data

How the results depend on the processing

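The share of lower regions at the nuclear receptor genes stayed between 67.7% and 83.3% under every alternative tried, with 67.7% for a 10 kb flank. The median differences stayed negative in all of them. With only absolute differences of at least 0.5, 13 genes were mostly lower instead of 20, the median over genes was -0.583 and over regions -0.574, 6 instead of 11 of the 14 subfamilies had mostly lower regions, and Esrrg turned to a mean of 0.151. With at least 10 cytosines, 14 instead of 24 genes held a region, 11 were mostly lower and 2 mostly higher, and Esrrg turned to 0.0282 (0.02825 before rounding). These settings keep fewer regions by construction. A 10 kb flank, which adds regions, moved the mean difference of Rarg from -0.619 to -0.0391, of Nr1d1 from -0.771 to -0.106 and of Rxra from 0.573 to 0.230. No region was shared by 2 of the genes, so leaving such regions out changed nothing. Leaving out Esr1, Esrrg and Nr1h4, which hold 22 of the 53 regions, was chosen after seeing the data and gave 77.4% lower. Coverage is not known, so levels from 4 or 5 cytosines carry an unknown counting error, and with 1 library per group neither direction nor size has a replicate check.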
